A study of Homo sapiens with 6 samples.

Results

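Chromosome 10 protein-coding genes were followed by their position along the chromosome in MDA-MB-231 cells, a basal-like human breast cancer line, that carried a tetracycline-inducible hairpin against the long non-coding RNA HOTAIR or a scrambled one. The genes were those that GENCODE 29 annotates as protein-coding on chromosome 10 and whose mean over the 6 libraries was at least 1 FPKM, a count of fragments scaled by transcript length and library size. Of 723 such rows in the deposited table, 443 reached that mean, 105 on the short (p) arm and 338 on the long (q) arm, among 11587 protein-coding genes and 15934 genes of any type that reached it over the whole table. The 2 groups were Tet-shCtrl (shCtrl, scrambled hairpin, 3 libraries) and Tet-shHOTAIR (shHOTAIR, 3 libraries), and all 6 cultures received 1 µg/ml doxycycline for 96 h. Poly(A) RNA was sequenced. The labels describe the repeats as independent, but each group is 1 derivative of the line, so a difference between the derivatives cannot be told apart from an effect of the hairpin, and cultures without doxycycline were not analysed here.

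Chromosome 10 was taken up because its genes were already known to be lower in shHOTAIR in these same libraries. Its overall fall and the counts that rest on it are therefore a description and carry no test. Of the 280 rows below the mean of 1 FPKM, 67 were at 0 in every library, 9 had an shCtrl mean of at least 1 FPKM and 5 an shHOTAIR mean of at least 1 FPKM. Just inside the threshold lay ASAH2 and CFAP70, with means over the 6 libraries of 1.09 and 1.18 FPKM. Just outside lay ZNF487, SYT15 and CFAP46, with means of 0.998, 0.990 and 0.989 FPKM. Among the 443, the shHOTAIR mean was below 1 FPKM for 13 genes and the shCtrl mean for 1.

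A human chromosome carries many unrelated genes, whose transcripts are set by their own promoters and enhancers, by the chromatin domain around them and by the number of copies of the stretch of DNA they lie on. Breast cancer lines such as MDA-MB-231 are aneuploid: arms and parts of arms are present in unequal copy number, and cultures derived from one line can differ in them. Chromosome 10 holds genes with well-known roles in tumour cells, among them VIM, the intermediate filament protein vimentin of mesenchymal cells, and PLAU, the secreted protease urokinase. DNA copy number was not measured in these libraries.

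Promoter windows of 6 of the genes, picked by hand, are printed as examples. They are VIM and DKK1, which are among the 5 most abundant transcripts of the chromosome and fell, and NFKB2, ZNF518A, GATA3 and ANK3. NFKB2 fell further than the genes around it, and GATA3 and ANK3 rose. ZNF518A reached the mean of 1 FPKM only through shCtrl, so its fall is given as a description. Whether any result depends on the kind of start site was not tested. Each is the 250 bases before the RefSeq start of the gene on GRCh38.p14, written 5′ to 3′ on the strand of the gene: VIM chr10:17227991-17228240, DKK1 chr10:52314031-52314280, NFKB2 chr10:102393860-102394109, ZNF518A chr10:96129465-96129714 and GATA3 chr10:8045083-8045332 on the plus strand, and ANK3 chr10:60733529-60733778 on the minus strand. None of the 6 windows lies within the GENCODE span of its gene. Capitals mark every match, on either strand, to TATAAA (the TATA box), GGGCGG (the GC box), CCAAT (the CCAAT box) and TGACTCA (the AP-1 element), so that the GC box of ANK3 appears as its reverse complement.
VIM: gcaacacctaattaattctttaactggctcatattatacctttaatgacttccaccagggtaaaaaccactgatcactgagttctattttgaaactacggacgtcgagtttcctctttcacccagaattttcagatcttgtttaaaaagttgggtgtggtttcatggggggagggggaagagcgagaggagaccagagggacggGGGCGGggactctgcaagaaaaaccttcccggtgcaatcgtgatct
DKK1: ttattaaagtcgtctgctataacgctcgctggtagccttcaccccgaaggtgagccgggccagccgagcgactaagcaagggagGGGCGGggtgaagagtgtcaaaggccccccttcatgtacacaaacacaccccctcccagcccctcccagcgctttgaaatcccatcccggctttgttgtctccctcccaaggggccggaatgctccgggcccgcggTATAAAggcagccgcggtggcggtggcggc
NFKB2: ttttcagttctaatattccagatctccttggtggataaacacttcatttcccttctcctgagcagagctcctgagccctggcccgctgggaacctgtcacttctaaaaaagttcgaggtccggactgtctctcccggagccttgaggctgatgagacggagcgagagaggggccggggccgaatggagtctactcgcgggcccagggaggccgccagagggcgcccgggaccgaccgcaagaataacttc
ZNF518A: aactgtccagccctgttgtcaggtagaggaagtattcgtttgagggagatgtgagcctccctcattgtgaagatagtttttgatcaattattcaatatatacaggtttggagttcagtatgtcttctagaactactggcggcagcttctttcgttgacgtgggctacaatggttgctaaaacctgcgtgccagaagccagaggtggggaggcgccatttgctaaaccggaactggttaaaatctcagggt
GATA3: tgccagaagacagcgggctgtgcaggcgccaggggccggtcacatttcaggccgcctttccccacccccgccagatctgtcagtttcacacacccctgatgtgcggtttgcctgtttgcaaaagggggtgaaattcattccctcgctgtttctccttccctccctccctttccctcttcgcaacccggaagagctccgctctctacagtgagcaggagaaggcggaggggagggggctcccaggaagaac
ANK3: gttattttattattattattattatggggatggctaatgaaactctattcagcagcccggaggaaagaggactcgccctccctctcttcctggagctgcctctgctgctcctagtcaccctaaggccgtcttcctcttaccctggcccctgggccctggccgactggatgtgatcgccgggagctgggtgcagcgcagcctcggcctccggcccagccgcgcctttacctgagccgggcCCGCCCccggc
The DKK1 window held a TATA box and a GC box, those of VIM and ANK3 a GC box each, and those of NFKB2, ZNF518A and GATA3 none of these words. A match is a run of letters, not a bound site, and no match says only that the letters are not in the window.

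Series-wide values set the limits. HOTAIR itself, on chromosome 12, was at 0, 0.0128 and 0.0132 FPKM in shCtrl against 0, 0 and 0.0113 FPKM in shHOTAIR, so these libraries do not show whether the hairpin lowered it. Summed FPKM ran from 2224150 to 2569505 in shCtrl and from 1620978 to 1820768 in shHOTAIR, while the median of protein-coding genes was between 20 and 20.5 FPKM in every library. Fragment counts per library are not given, so the depth behind each value is unknown. The labelled cell type was compared with listed genes. The 6 listed for the line were VIM, CD44, EGFR, KRT8, KRT18 and KRT19. Their sum was between 1790.1 and 1884 FPKM in shCtrl and between 1382 and 1618 FPKM in shHOTAIR. VIM alone, itself on chromosome 10, was at 906 to 977 FPKM in shCtrl. The list held no basal keratin, so its sum does not check the basal-like label. CDH1, EPCAM and ESR1 reached at most 0.114, 0.0957 and 0.0947 FPKM. PGR was at 0 in all libraries, and ERBB2 was between 17.3 and 25.5 FPKM. The 6 did not move together: VIM and KRT19 were lower in every shHOTAIR library, EGFR, KRT8 and KRT18 were higher, EGFR at 70.4 to 80.9 FPKM in shCtrl against 150 to 165 FPKM in shHOTAIR, and the groups overlapped for CD44. Leukocyte markers summed to at most 0.594 FPKM and endothelial markers to at most 0.510 FPKM. The 5 fibroblast markers summed to between 2.57 and 3.26 FPKM in shCtrl and between 4.34 and 5.78 FPKM in shHOTAIR. COL1A1 alone differed, at 1.08 to 1.58 against 3.27 to 3.82 FPKM, while the groups overlapped for COL1A2, COL3A1, PDGFRB and DCN, and the part of these markers in the results was not tested. In bulk RNA, fewer cells of a kind and less RNA per cell cannot be told apart.

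The chromosome was lower as a whole in shHOTAIR. The median ratio of the shHOTAIR mean to the shCtrl mean over the 443 genes was 0.679, with quartiles of 0.587 and 0.803, and 407 genes (91.9%) had a lower mean in shHOTAIR, against 54.6% of all protein-coding genes tested. The median difference was -0.52 on the log2(FPKM + 1) scale, the scale of every log2 value below, against -0.03 over all protein-coding genes. Relative to the shCtrl mean of each gene, the median gene stood at -0.0037, 0.0022 and 0.0031 in the 3 shCtrl libraries and at -0.52, -0.53 and -0.51 in the 3 shHOTAIR libraries. The 3 shHOTAIR libraries lay close to each other. The shCtrl medians are near 0 by construction, as each gene is taken relative to its own shCtrl mean.

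The summed level of the 443 genes was 27270, 27528 and 27760 FPKM in shCtrl and 18152, 18095 and 18810 FPKM in shHOTAIR. They made up 3.44%, 3.58% and 3.52% of protein-coding FPKM in shCtrl and 2.47%, 2.46% and 2.45% in shHOTAIR, while being 3.82% of the protein-coding genes tested. The groups did not overlap in either sum or share. FPKM is relative to the library, so these values show the chromosome against the rest of the genome and not RNA per cell. Among the 23 chromosomes with protein-coding genes tested, chromosome 10 had the lowest median ratio, followed by chromosome 18 at 0.829 and chromosome 19 at 0.889.

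A gene is said below to have risen or fallen where limma's moderated test, fitted on all 15934 genes with Benjamini-Hochberg adjustment, gave an adjusted p under 0.05. By that rule 298 of the 443 genes fell, 12 rose and 133 were not called. Over all genes tested, 12.4% fell and 11.5% rose, 23.8% in all. As the contrast itself chose the chromosome, nothing is read from the distance between those shares. Every shHOTAIR library was below every shCtrl library for 353 genes, where 23.2% of all genes tested showed this, and every one was above for 16, where 19.9% of all genes tested did.

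The fall was moderate and shared rather than carried by a few genes. The ratio lay between 0.5 and 0.9 for 329 genes (74.3%, against 33.3% of all protein-coding genes tested), below 0.5 for 53, between 0.9 and 1.1 for 32 and above 1.1 for 29. The interquartile range of the log2 difference was 0.44, close to the 0.43 of all protein-coding genes, so that the distribution was displaced by more than its interquartile range without being wider. Chromosomes 4 and 13, whose medians were higher in shHOTAIR with ratios of 1.13 (436 genes) and 1.37 (202 genes), had interquartile ranges of 0.75 and 0.75. The within-group standard deviation of the median chromosome 10 gene in shCtrl was 0.086 on the log2 scale.

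**Figure D1:**
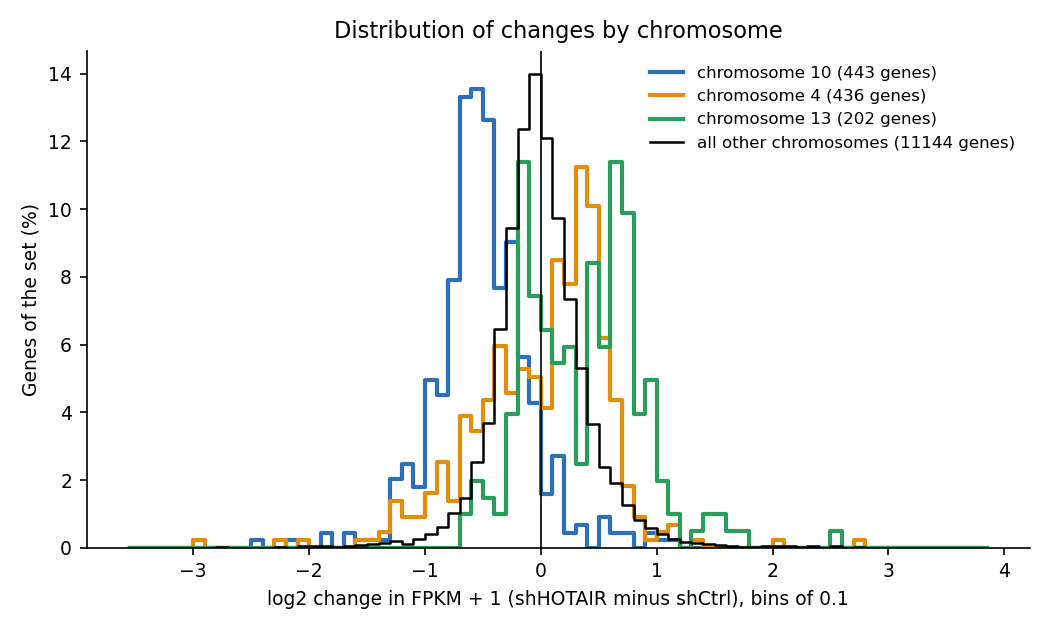
Distribution of the log2 difference, shHOTAIR minus shCtrl on log2(FPKM + 1), as the share of genes per bin, for the 443 chromosome 10 genes, those of chromosomes 4 and 13, and the protein-coding genes of all chromosomes other than 10. The chromosome 10 curve is displaced to the left, with a median of -0.52 against -0.02, and has a similar width.

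Abundant genes of unrelated function give examples. BUB3, a spindle checkpoint protein, was at 445, 453 and 471 FPKM in shCtrl against 291, 269 and 289 FPKM in shHOTAIR, a ratio of 0.62. GDI2, which recycles Rab GTPases, was at 285, 285 and 276 FPKM in shCtrl against 155, 135 and 158 FPKM in shHOTAIR, a ratio of 0.53. ATP5F1C, a subunit of the mitochondrial ATP synthase, was at 386, 393 and 398 FPKM in shCtrl against 222, 220 and 236 FPKM in shHOTAIR, a ratio of 0.58. In none of these 3 genes did the groups overlap, and limma's adjusted p-values were 0.0014, 0.0013 and 0.0008. BUB3 also passed the test for a fall beyond its neighbours described below (-0.23, adjusted p = 0.029), a call lost without any 1 of the 6 libraries (highest adjusted p 0.084). BUB3 (chr10:123154277-123170467) lies on the other arm from GDI2 (chr10:5765223-5842132) and ATP5F1C (chr10:7788129-7807815).

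The 5 most abundant transcripts also fell. RPS24, a protein of the small ribosomal subunit, was at 2259, 2166 and 2282 FPKM in shCtrl against 1160.1, 1329.6 and 1445 FPKM in shHOTAIR, a ratio of 0.59 with a log2 difference of -0.77 (SE 0.094, adjusted p = 0.0040). VIM was at 906, 960 and 977 FPKM in shCtrl against 361, 405 and 411 FPKM in shHOTAIR, a ratio of 0.41 with a log2 difference of -1.27 (SE 0.071, adjusted p = 0.00062). DKK1, a secreted Wnt antagonist, was at 812, 874 and 892 FPKM in shCtrl against 460, 433 and 479 FPKM in shHOTAIR, a ratio of 0.53 with a log2 difference of -0.91 (SE 0.066, adjusted p = 0.0011). Of these, VIM moved furthest, and no shHOTAIR library reached the lowest shCtrl library in any of the 3.

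ATP5MD, another ATP synthase subunit, had a ratio of 0.52 (log2 difference -0.93, adjusted p = 0.0023). SRGN, the proteoglycan serglycin, moved least among the 5, from 460, 437 and 457 FPKM to 379, 365 and 390 FPKM, a ratio of 0.84 (log2 difference -0.25, adjusted p = 0.020). Its call was lost without shCtrl 1 or shCtrl 3 (highest adjusted p 0.058). VIM overlaps the antisense gene VIM-AS1, and as the strand setting of the counting is not given, reads of such pairs may not be told apart. In all, 156 of the 443 genes overlap another tested gene.

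The median ratio was similar at every level. Genes with a mean of 1 to 5, 5 to 20, 20 to 100 and at least 100 FPKM (79, 128, 178 and 58 genes) had median ratios of 0.697, 0.697, 0.671 and 0.670. The spread did narrow with level: the interquartile ranges of the log2 difference were 0.59, 0.45, 0.32 and 0.33, and the share with a lower shHOTAIR mean was 81.0%, 89.8%, 97.2% and 94.8%. Low genes are measured less precisely, and the pseudocount of 1 shrinks their log2 values, so the ratios are the better guide there.

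Genes that are not protein-coding had a similar median ratio. Of 146 chromosome 10 genes of other types tested, the median ratio was 0.702, and 37 (25.3%) fell and 4 (2.74%) rose. The 3668 genes of other types on the other chromosomes had a median ratio of 1.00, and 5.10% fell and 5.59% rose. The 48 antisense genes had a median ratio of 0.679 and the 29 lincRNA genes one of 0.736, against 0.999 and 0.998 for these types elsewhere. Many of these genes overlap or flank the protein-coding ones.

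By arm, the p arm was lower than the q arm. The 105 p arm genes had a median ratio of 0.609 (log2 difference -0.68), and 79 fell and 2 rose, AKR1C3 and GATA3. The 338 q arm genes had a median ratio of 0.697 (log2 difference -0.48), and 219 fell and 10 rose. In the 3 shHOTAIR libraries the median p arm gene stood at -0.65, -0.65 and -0.68 and the median q arm gene at -0.49, -0.49 and -0.48 relative to the shCtrl mean. The arms therefore differed in the same direction in each shHOTAIR library, by more than the arm medians varied among these libraries. The interquartile range was 0.49 on the p arm and 0.40 on the q arm.

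By 10 Mb window, counted from position 1 of the chromosome by the midpoint of the gene, all 14 windows were lower in shHOTAIR. The lowest median ratio was 0.556, in the window from 10 to 20 Mb (35 genes, of which 29 fell), and the highest was 0.763, from 60 to 70 Mb (27 genes, of which 16 fell and 2 rose). In every window the median of each shHOTAIR library lay below that of each shCtrl library. Toward the end of the p arm the window from 0 to 10 Mb had a median ratio of 0.620, and those from 20 to 30 and 30 to 40 Mb had 0.611 and 0.665.

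Along the q arm the median ratios ran from 0.651 to 0.763. From 40 to 50, 50 to 60 and 70 to 80 Mb the median ratios were 0.671, 0.677 and 0.695, and from 80 to 90 and 90 to 100 Mb they were 0.728 and 0.706. The gene-dense window from 100 to 110 Mb (55 genes, 42 of which fell) had 0.651, the lowest of the arm. The last windows, from 110 to 120, 120 to 130 and 130 Mb to the end, had 0.726, 0.706 and 0.677.

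**Figure D2:**
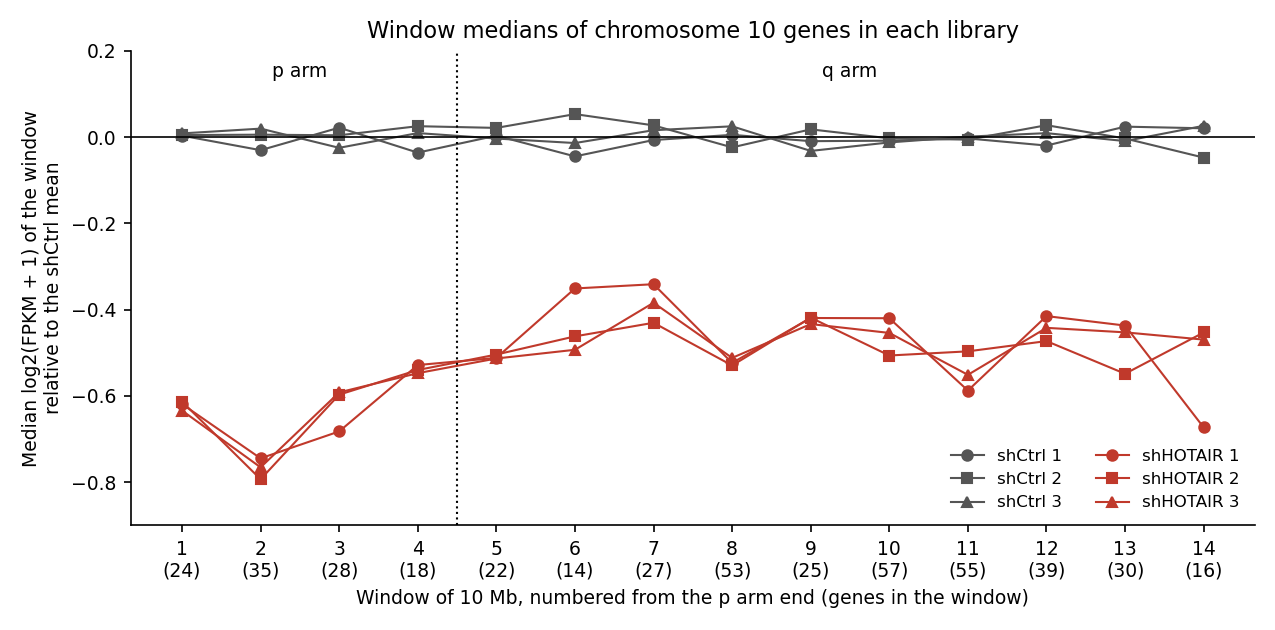
Median log2 value of the genes of each 10 Mb window in each of the 6 libraries, relative to the shCtrl mean of each gene, in order along chromosome 10. The shCtrl medians lie near 0 and the shHOTAIR medians between -0.34 and -0.79 in all 14 windows, lowest from 10 to 20 Mb.

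The gene nearest to the median of its window shows the level of each stretch. RBM17, a splicing factor in the first window, went from 48.6, 47.7 and 51.7 FPKM to 30.6, 31.0 and 30.1 FPKM, a ratio of 0.62. MCU, the pore of the mitochondrial calcium uniporter, from the window at 70 to 80 Mb, went from 24.2, 24.1 and 26.1 FPKM to 17.1, 16.4 and 18.2 FPKM, a ratio of 0.69. GLRX3, a glutaredoxin in the last window of the q arm, went from 116, 123 and 123 FPKM to 85.2, 84.6 and 81.5 FPKM, a ratio of 0.69. The groups did not overlap in these 3 genes, and limma's adjusted p-values were 0.0012, 0.0045 and 0.0020.

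Typical genes of other windows were closer to their replicate spread. TRDMT1, an RNA methyltransferase from the window at 10 to 20 Mb, was at 6.48, 10.5 and 11.3 FPKM in shCtrl against 6.63, 4.89 and 4.37 FPKM in shHOTAIR, so its groups overlapped and it was not called (adjusted p = 0.082). ARMH3, from the window at 100 to 110 Mb, was at 37.7, 35 and 33.4 FPKM in shCtrl against 21.3, 18.3 and 31.7 FPKM in shHOTAIR (adjusted p = 0.088). MSRB2, a methionine sulfoxide reductase from the window at 20 to 30 Mb, was at 12.9, 10.1 and 9.49 FPKM in shCtrl against 5.05, 7.07 and 7.80 FPKM in shHOTAIR (adjusted p = 0.054). For ARMH3 and MSRB2 the groups did not overlap, but 1 library of a group stood apart from the other two, and the differences did not pass the test.

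Within the p arm the ratio changed in steps. With boundaries set after the values were seen, the 10 genes of the first 5 Mb had a median ratio of 0.866, the 61 genes from 5 to 25 Mb one of 0.556, and the 34 genes from 25 to 40 Mb one of 0.689, close to the 0.697 of the 372 genes from 25 Mb to the end of the chromosome. In the 3 shHOTAIR libraries the median gene from 5 to 25 Mb stood at -0.79, -0.77 and -0.76, that of the first 5 Mb at -0.28, -0.15 and -0.14, and that from 25 Mb on at -0.48, -0.50 and -0.48. A median over 41 genes in order along the chromosome ran from -0.82, centred at MINDY3, to -0.37, centred at JMJD1C.

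The stretch from 5 to 25 Mb held 51 genes that fell and 2 that rose, and VIM lies in it. STAM, an endosomal sorting adaptor, went from 48.8, 47.3 and 45.3 FPKM to 26.2, 25.5 and 25.3 FPKM (ratio 0.54). CDC123, a translation initiation and cell cycle factor, went from 223, 230 and 245 FPKM to 129, 114 and 121 FPKM (ratio 0.52). BMI1, a Polycomb repressive complex subunit, went from 77.2, 100 and 94.6 FPKM to 56.0, 55.5 and 54.2 FPKM (ratio 0.61), and shares its locus with the readthrough gene COMMD3-BMI1. All 3 fell, with adjusted p-values of 0.00067, 0.0011 and 0.0074 in limma, and their libraries did not overlap.

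In the first 5 Mb, 3 of the 10 genes fell, IDI1, WDR37 and KLF6, and the other 7 were not called. IDI1, an enzyme of isoprenoid synthesis, was at 84.0, 79.4 and 81.2 FPKM in shCtrl against 52.0, 49.2 and 47.0 FPKM in shHOTAIR, a ratio of 0.61. LARP4B, an RNA-binding protein, was at 42.7, 40.9 and 40.2 FPKM in shCtrl against 41.9, 36.9 and 37.3 FPKM in shHOTAIR, a ratio of 0.94 (adjusted p = 0.37). KLF6, a zinc finger transcription factor, was at 47.5, 44.7 and 46.3 FPKM in shCtrl against 20.9, 20.9 and 19.7 FPKM in shHOTAIR, a ratio of 0.44 (adjusted p = 0.00041). The ratios of the 10 ran from 0.44 at KLF6 to 1.13 at IDI2, so their median has little precision.

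**Figure D3:**
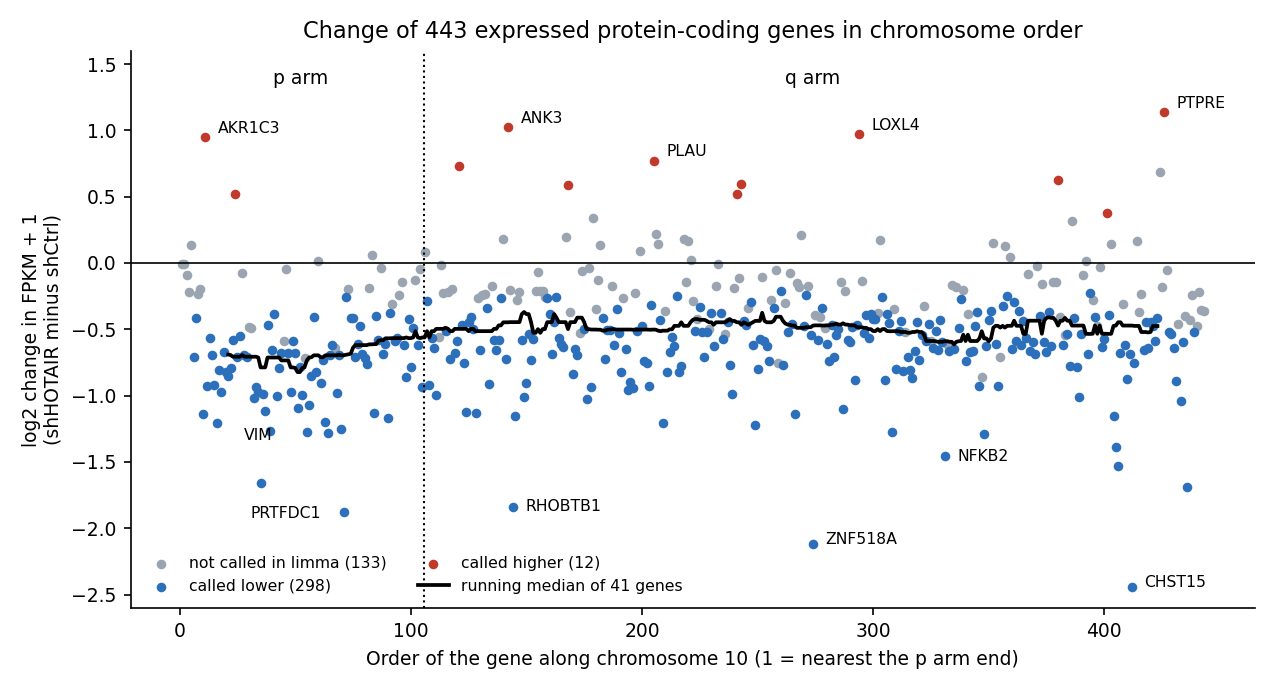
Log2 difference of each of the 443 genes, shHOTAIR minus shCtrl on log2(FPKM + 1), in order along chromosome 10, with the median over 41 genes as a line and genes that rose in red, fell in blue and were not called in grey. The line stays below 0 throughout, between -0.82 and -0.37, and single genes stand apart on both sides, with CHST15 and ZNF518A lowest and PTPRE and ANK3 highest.

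To look for genes that stood apart from their stretch, each gene was centred on its neighbours. The median deviation of the 50 nearest tested protein-coding genes was subtracted from each gene in each library. Limma was then fitted to the remainder for all 15396 genes with enough neighbours. Of the 443 genes, 330 were not called as departing from their neighbours, 63 were higher than their neighbours and 50 were lower. With 3 libraries per group, a gene not called can still stand apart. In that fit TSPAN15 was 0.68 above and ERCC6 0.64 below its neighbours (adjusted p = 0.067 and 0.065). Genes said here not to depart are those not called. Over all genes in that fit, 8.26% were higher and 7.35% lower than their neighbours. Departure and fall are different measures: 240 of the 298 genes that fell did not depart from their neighbours, 50 fell further than them and 8 fell less. All 12 genes that rose were higher than their neighbours, as were 43 genes that were not called against shCtrl. As the neighbours fell all along the chromosome, this is no second test of the rises.

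The counts of departing genes changed with the library left out. Without shCtrl 1, 2 or 3, the higher count was 37, 33 or 31, and without shHOTAIR 1, 2 or 3 it was 50, 32 or 33. The lower count was 26, 30 or 27 without shCtrl 1, 2 or 3, and 41, 26 or 34 without shHOTAIR 1, 2 or 3. In the first 5 Mb, 7 of 10 genes were higher than their neighbours, of which 5 were so with the 20 nearest genes in place of 50. Genes near the end of the chromosome have most of their neighbours on 1 side with either number.

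PTPRE and ANK3 rose most on the log2 scale. PTPRE (chr10:127907061-128085855), a receptor-type tyrosine phosphatase, was at 6.26, 5.81 and 5.44 FPKM in shCtrl against 12.3, 12.6 and 17.7 FPKM in shHOTAIR. Its ratio was 2.43 and its log2 difference 1.14 (SE 0.15, adjusted p = 0.0051), which is 1.62 above its neighbours. ANK3 (chr10:60026298-60733490), the membrane-cytoskeleton adaptor ankyrin-G, was at 4.91, 5.12 and 4.61 FPKM in shCtrl against 12.6, 11.3 and 9.13 FPKM in shHOTAIR. Its ratio was 2.26, its log2 difference 1.02 (adjusted p = 0.0039) and its difference from its neighbours 1.49. In both genes the lowest shHOTAIR library was well above the highest shCtrl library, with more spread among the shHOTAIR libraries.

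LOXL4, a lysyl oxidase that cross-links collagen, was at 3.09, 3.05 and 3.02 FPKM in shCtrl against 6.15, 7.82 and 7.0 FPKM in shHOTAIR (ratio 2.29, adjusted p = 0.0024). PLAU (chr10:73909177-73917497) was at 123, 140 and 140 FPKM in shCtrl against 219, 237 and 235 FPKM in shHOTAIR, a ratio of 1.71 with a log2 difference of 0.77 (SE 0.071, adjusted p = 0.0019). COL13A1, a transmembrane collagen, was at 46.8, 56.5 and 46.3 FPKM in shCtrl against 78.6, 75.3 and 71.5 FPKM in shHOTAIR (ratio 1.51, adjusted p = 0.0092). PLAU was the most abundant gene that rose, and no library of the 3 genes crossed between the groups. PLAU overlaps C10orf55 on the other strand, which was at 2.20, 2.49 and 2.43 FPKM in shCtrl against 2.85, 3.03 and 2.86 FPKM in shHOTAIR and was not called (adjusted p = 0.16).

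AKR1C3, an aldo-keto reductase that acts on steroids and prostaglandins, was at 3.05, 2.37 and 3.26 FPKM in shCtrl against 5.82, 6.78 and 6.92 FPKM in shHOTAIR (ratio 2.25, adjusted p = 0.0049). At 1.64 above its neighbours it stood furthest from them of the genes that rose. Its near copies AKR1C1 and AKR1C2 were below the mean of 1 FPKM, and reads may be shared among the 3, so its level is uncertain. HSPA12A, a distant member of the HSP70 family, was at 2.52, 2.22 and 2.40 FPKM in shCtrl against 4.27, 4.11 and 4.25 FPKM in shHOTAIR (ratio 1.77, adjusted p = 0.0059). TACC2, a centrosome and microtubule protein named here after its values were seen, was at 21.4, 19.8 and 20.8 FPKM in shCtrl against 27.0, 27.9 and 26.4 FPKM in shHOTAIR (ratio 1.31, adjusted p = 0.0063). The HSPA12A and TACC2 libraries were tight within each group and did not overlap.

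GATA3 and ZNF488, both zinc finger genes, rose from low levels. GATA3, the luminal lineage factor of the breast, was at 1.06, 1.09 and 1.09 FPKM in shCtrl against 1.79, 2.17 and 1.98 FPKM in shHOTAIR (ratio 1.83, log2 difference 0.52, adjusted p = 0.037). Its call was lost after quantile normalisation or with no filter on low values (highest adjusted p 0.13). GATA3 was 1.21 above its neighbours (adjusted p = 0.0036 in the neighbour-centred limma fit). That distance includes the fall of the neighbours and is no separate support for the rise. ZNF488 was at 0.563, 0.611 and 0.792 FPKM in shCtrl against 1.77, 1.75 and 1.68 FPKM in shHOTAIR (ratio 2.65). Both were close to the mean of 1 FPKM that a gene needed to be included, ZNF488 being the 1 gene with an shCtrl mean below it. ZNF488 reached that mean only through shHOTAIR, so its values are given as a description.

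The IFIT genes, interferon-induced RNA-binding proteins that lie side by side from chr10:89283694 to 89421001, did not move together. IFIT1 was at 4.96, 3.49 and 4.05 FPKM in shCtrl against 5.75, 7.13 and 7.43 FPKM in shHOTAIR (ratio 1.62, adjusted p = 0.035), and IFIT2 was at 5.03, 4.0 and 4.13 FPKM in shCtrl against 6.21, 6.47 and 7.46 FPKM in shHOTAIR (ratio 1.53, adjusted p = 0.023). Both calls were lost without any 1 of shCtrl 2, shCtrl 3, shHOTAIR 2 and shHOTAIR 3 (highest adjusted p 0.12 for IFIT1 and 0.084 for IFIT2), and with no filter on low values. IFIT3, named after its values were seen, was at 8.73, 8.11 and 9.46 FPKM in shCtrl against 8.05, 7.73 and 8.29 FPKM in shHOTAIR, and its groups overlapped (adjusted p = 0.32). IFIT5, the most abundant, fell from 22.1, 24.3 and 22.2 FPKM to 18.1, 16.4 and 15.5 FPKM (ratio 0.73, adjusted p = 0.012), a call lost without shHOTAIR 2 (adjusted p = 0.053). IFIT1 and IFIT2 were higher than their neighbours (differences of 1.03 and 0.95), a call lost for IFIT1 without shCtrl 3, shHOTAIR 2 or shHOTAIR 3 (highest adjusted p 0.057), and IFIT5 did not depart from them (adjusted p = 0.93).

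**Figure D4:**
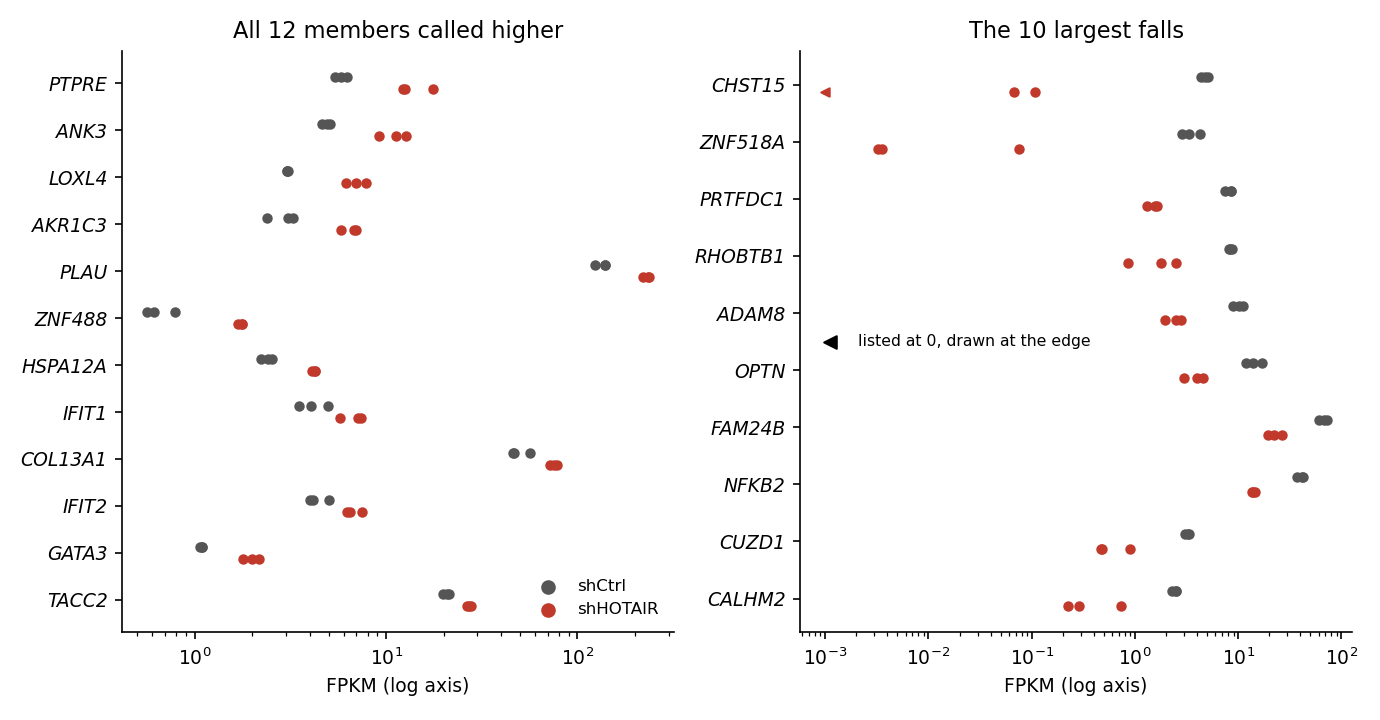
FPKM of each library, on a log axis, for the 12 chromosome 10 genes that rose (left) and the 10 with the largest falls (right). Each point is 1 library, and in all 22 genes the shCtrl and shHOTAIR points do not overlap. A left-pointing triangle marks a library listed at 0.

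CHST15, ZNF518A, CALHM2 and CUZD1, among the 10 largest falls, also belong to the 13 genes whose shHOTAIR mean was below 1 FPKM. They reached the mean of 1 FPKM only through shCtrl and so had to differ, and their values are given as a description. CHST15 (chr10:124007666-124093607), a sulfotransferase that makes chondroitin sulfate E, was at 4.39, 5.07 and 4.77 FPKM in shCtrl and listed at 0, 0.0668 and 0.108 FPKM in shHOTAIR (log2 difference -2.44, SE 0.13). ZNF518A (chr10:96129715-96205288), a zinc finger gene, was at 2.85, 4.27 and 3.36 FPKM in shCtrl against 0.00328, 0.0749 and 0.00354 FPKM in shHOTAIR (log2 difference -2.12, SE 0.18). These 2 transcripts were near absent from all 3 shHOTAIR libraries, and their differences from their neighbours were -1.97 and -1.70. Among the largest falls that kept a mean above 1 FPKM in shHOTAIR, PRTFDC1, a relative of the purine salvage enzyme HPRT, went from 7.41, 8.5 and 8.58 FPKM to 1.63, 1.57 and 1.30 FPKM, a ratio of 0.18 with a log2 difference of -1.87 (adjusted p = 0.00057). RHOBTB1 went from 8.07, 8.26 and 8.77 FPKM to 1.78, 2.49 and 0.852 FPKM (log2 difference -1.84, adjusted p = 0.0049).

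ADAM8, a membrane metalloprotease, fell from 8.97, 10.1 and 11.0 FPKM to 2.82, 1.96 and 2.52 FPKM (ratio 0.24, adjusted p = 0.0012). OPTN, the autophagy receptor optineurin, fell from 17.1, 11.8 and 14 FPKM to 2.99, 4.59 and 3.96 FPKM (ratio 0.27, adjusted p = 0.0029). NFKB2, the p100 precursor of non-canonical NF-kappaB signalling, fell from 42.7, 37.1 and 41.2 FPKM to 13.6, 14.5 and 14 FPKM (ratio 0.35, adjusted p = 0.00041). The shHOTAIR libraries of NFKB2 lay within 1 FPKM of each other, and its difference from its neighbours was -0.89 (adjusted p = 0.0013).

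CALHM2, a calcium homeostasis modulator channel, went from 2.5, 2.51 and 2.29 FPKM to 0.226, 0.287 and 0.738 FPKM (ratio 0.17). FAM24B and CUZD1 overlap in the annotation and may share reads: FAM24B fell from 68.1, 60.8 and 72.6 FPKM to 19.6, 26.3 and 22.3 FPKM (ratio 0.34, adjusted p = 0.0014) and CUZD1 went from 3.31, 3.03 and 3.24 FPKM to 0.476, 0.905 and 0.470 FPKM (ratio 0.19). The difference from the neighbours was lost for RHOBTB1 without any 1 shCtrl library (highest adjusted p 0.063). For OPTN it was lost without any 1 library other than shCtrl 2 (highest adjusted p 0.096). CALHM2 and CUZD1 reached the mean of 1 FPKM only through shCtrl, so no test against their neighbours is read for them.

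Genes near each other did not all take the same course. In the window from 60 to 70 Mb, ANK3 rose, CDK1, the mitotic kinase next to it, was at 138, 177 and 164 FPKM in shCtrl against 164, 128 and 124 FPKM in shHOTAIR with overlapping groups (adjusted p = 0.35), and RHOBTB1, the next in order of these, fell. ARID5B, a DNA-binding chromatin factor further along, fell from 11.5, 9.89 and 10.4 FPKM to 4.27, 4.41 and 3.95 FPKM (ratio 0.40, adjusted p = 0.0010). In the window from 70 to 80 Mb, PLAU rose, while VCL, the focal adhesion protein vinculin, was at 112, 122 and 127 FPKM in shCtrl against 133, 142 and 126 FPKM in shHOTAIR and was not called (adjusted p = 0.21). VCL was nonetheless 0.67 above its neighbours (adjusted p = 0.0038). COMMD3, just before BMI1 on the p arm, fell from 46.8, 41.8 and 45.6 FPKM to 18.3, 19.6 and 18.9 FPKM, a ratio of 0.42 where BMI1 had 0.61. Both overlap the readthrough gene COMMD3-BMI1 in the annotation and may share reads with it.

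Promoters were compared between the genes that departed and those that did not. The RefSeq table gave a window for 379 of the 443 genes. The first 30 bases after its start were found in a GENCODE transcript of the gene for 145 of 196 plus-strand windows. On the minus strand this held for 132 of 183, so some starts differ between the annotations. The GC box GGGCGG occurred in 61.8% of the 285 windows of genes without a departure, in 67.9% of the 53 of genes higher than their neighbours and in 75.6% of the 41 of genes lower than them, against 56.0% of the 15842 windows of all protein-coding genes in that table. TATAAA occurred in 4.56%, 9.43% and 12.2%, against 9.24%, which is 13, 5 and 5 windows. CCAAT occurred in 29.5%, 49.1% and 34.2%, against 34.5%, and TGACTCA in 2.46%, 0% and 4.88%, against 3.17%. Median GC content was 64.4%, 65.2% and 66.0%, against 62.4%. Of the 6 windows printed above, those with a GC box belong to genes of both directions, VIM and DKK1, which fell, and ANK3, which rose. These shares are a description with small numbers, and no test was run on them. The windows of all protein-coding genes were not limited to expressed genes, unlike those of the chromosome 10 genes.

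Grouped by role, in lists drawn up from general knowledge, most groups followed the chromosome. For comparison, 67.3% of the 443 genes fell and 2.71% rose, against 12.4% and 11.5% of all genes tested. The share that fell also grew with level. It was 39.2%, 64.1%, 77.5% and 81.0% for means of 1 to 5, 5 to 20, 20 to 100 and at least 100 FPKM. The lists differ in level, so their counts are not read as differences between roles. Of 16 genes of RNA processing and translation, 15 fell (median ratio 0.69). DDX21, a nucleolar helicase, went from 168, 193 and 183 FPKM to 120, 107 and 108 FPKM (ratio 0.62), and EIF3A, the largest subunit of initiation factor eIF3, from 179, 186 and 178 FPKM to 146, 133 and 129 FPKM (ratio 0.75), with adjusted p-values of 0.0033 and 0.0075. The 1 gene not called was EIF4EBP2, a repressor of cap-dependent translation, at 15.8, 17.0 and 16.1 FPKM in shCtrl against 17.2, 15.3 and 14.4 FPKM in shHOTAIR (adjusted p = 0.61).

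Of 19 mitochondrial genes, 16 fell (median ratio 0.63), and all 19 had a lower mean. PRDX3, a mitochondrial peroxidase, went from 264, 260 and 276 FPKM to 200, 168 and 185 FPKM (ratio 0.69, adjusted p = 0.0064). TFAM, which packages and transcribes mitochondrial DNA, went from 273, 317 and 306 FPKM to 241, 257 and 247 FPKM (ratio 0.83). TFAM was at the edge of the threshold (adjusted p = 0.047), and its call was lost without any 1 library other than shCtrl 1 (highest adjusted p 0.13) and under median-of-ratios or quantile scaling.

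Of 22 genes of glycolysis, lipid and amino acid metabolism, 16 fell and 1, AKR1C3, rose (median ratio 0.69). HK1, the first enzyme of glycolysis, went from 188, 185 and 192 FPKM to 120, 130 and 114 FPKM (ratio 0.65), and PGAM1, a later one, from 259, 267 and 277 FPKM to 190, 195 and 195 FPKM (ratio 0.72). SCD, which makes monounsaturated fatty acids and was named after its values were seen, went from 130, 125 and 130 FPKM to 46.8, 60.6 and 50.9 FPKM (ratio 0.41). The adjusted p-values of the 3 were 0.0023, 0.0025 and 0.0013, and the difference of SCD from its neighbours was -0.74 (adjusted p = 0.0036). AKR1C1 and AKR1C2 were below the mean of 1 FPKM.

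Of 18 genes of protein folding, ubiquitin and traffic, 14 fell (median ratio 0.69). RAB18, a Rab GTPase of lipid droplets and the endoplasmic reticulum, went from 253, 262 and 274 FPKM to 144, 164 and 156 FPKM (ratio 0.59, adjusted p = 0.0017). VPS26A, a subunit of the retromer sorting complex, went from 170, 166 and 149 FPKM to 112, 99.7 and 115 FPKM (ratio 0.67, adjusted p = 0.0071). DNAJC12 was below the mean of 1 FPKM.

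Of 17 genes of growth control and cell death, 13 fell (median ratio 0.65), and FGFR2 and RET were below the mean of 1 FPKM. FAS, a death receptor, went from 2.73, 2.48 and 3.00 FPKM to 0.671, 1.04 and 0.942 FPKM (ratio 0.32). FAS reached the mean of 1 FPKM only through shCtrl, so its values are given as a description. PDCD4, a translation inhibitor, fell from 357, 336 and 333 FPKM to 213, 220 and 233 FPKM (ratio 0.65), MAPK8, the stress kinase JNK1, from 190, 190 and 189 FPKM to 150, 126 and 134 FPKM (ratio 0.72), and BNIP3, a mitophagy receptor, from 76.3, 78.1 and 74.3 FPKM to 47.1, 48.8 and 49.7 FPKM (ratio 0.64). KLF6, described above, was the 1 gene of this group lower than its neighbours, and SUFU the 1 higher.

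Of 28 genes of transcription and chromatin, 18 fell and 1, GATA3, rose (median ratio 0.67), with 4 genes higher and 6 lower than their neighbours. CREM, a cyclic AMP-responsive factor, went from 90.5, 95.9 and 96.1 FPKM to 57.0, 51.4 and 54.8 FPKM (ratio 0.58, adjusted p = 0.0012), and WAC, a regulator of H2B ubiquitination, from 115, 120 and 123 FPKM to 93.5, 83.2 and 94.5 FPKM (ratio 0.76, adjusted p = 0.011). NFKB2, ARID5B, JMJD1C, PCGF5, ZNF438 and CREM were those lower than their neighbours. For CREM this call was lost without any 1 library other than shHOTAIR 1 (highest adjusted p 0.11). EGR2 was below the mean of 1 FPKM.

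Of 19 genes of the cell cycle, DNA replication and repair, 11 fell and all had a lower mean (median ratio 0.75). ZWINT, a kinetochore protein, was at 221, 236 and 229 FPKM in shCtrl against 194, 196 and 218 FPKM in shHOTAIR and was not called (adjusted p = 0.11), nor was CDK1. BUB3, described above, and CEP55 were lower than their neighbours, and ZWINT and HELLS higher, a call lost for ZWINT without any 1 library other than shHOTAIR 1 (highest adjusted p 0.16). MKI67 and KIF20B were among the others not called. MGMT was below the mean of 1 FPKM.

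The group of adhesion, cytoskeleton and mesenchymal state had the widest spread of the 8 lists. Of its 25 genes, 13 fell and 3, PLAU, COL13A1 and LOXL4, rose (median ratio 0.86), with an interquartile range of the log2 difference of 0.77 against 0.44 for the chromosome. Those higher than their neighbours numbered 7, namely the 3 that rose, ITGB1, SRGN, VCL and ADAM12, and those lower numbered 4, VIM, PARD3, ANKRD1 and ADAM8. CDH23 and CTNNA3 were below the mean of 1 FPKM. The list was drawn up with these results known, so its spread is not independent evidence.

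ITGB1, the beta-1 integrin chain, was at 416, 394 and 355 FPKM in shCtrl against 331, 329 and 396 FPKM in shHOTAIR. Its groups overlapped (adjusted p = 0.36), and its place 0.46 above its neighbours (adjusted p = 0.033) was lost without any 1 library other than shCtrl 1 (highest adjusted p 0.097). ADAM12, a metalloprotease, was at 0.854, 1.97 and 2.72 FPKM in shCtrl against 3.73, 3.39 and 3.08 FPKM in shHOTAIR, without overlap but with shCtrl values far apart, and was not called (adjusted p = 0.13). The departures of SRGN and ADAM12 were each lost without 1 library, SRGN for any but shHOTAIR 2 and ADAM12 for any but shCtrl 1 or 3 (highest adjusted p 0.11 for each). ANKRD1, a mechanosensitive muscle and YAP target gene, fell from 234, 213 and 211 FPKM to 93.9, 92.3 and 93.8 FPKM, a ratio of 0.43 with a log2 difference of -1.22 (SE 0.056, adjusted p = 0.00041).

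ZEB1, a repressor of epithelial genes, was at 37.4, 37.9 and 34.5 FPKM in shCtrl against 32.3, 26.2 and 25.7 FPKM in shHOTAIR, a ratio of 0.77 at the edge of the threshold (adjusted p = 0.046). The call was lost without any 1 library other than shHOTAIR 1 (highest adjusted p 0.14) and under median-of-ratios or quantile scaling. ACTA2, smooth muscle actin, was at 2.02, 2.61 and 1.70 FPKM in shCtrl against 0.955, 0.759 and 0.732 FPKM in shHOTAIR (ratio 0.39). ACTA2 overlaps FAS at one end, and both are among the 13 genes with an shHOTAIR mean below 1 FPKM. Both reached the mean of 1 FPKM only through shCtrl, so the values of ACTA2 are also given as a description. VIM was lower than its neighbours (-0.52, adjusted p = 0.0094), while ZEB1 was not called against its neighbours (adjusted p = 0.25).

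**Figure D5:**
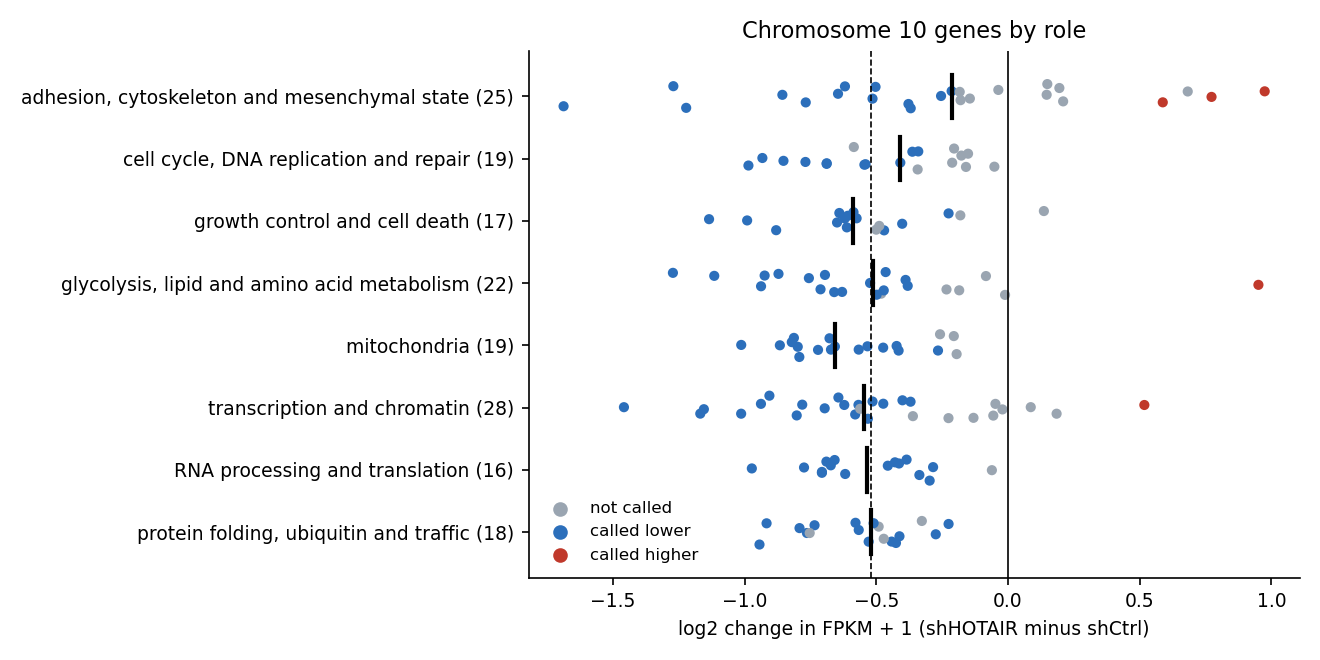
Log2 difference, shHOTAIR minus shCtrl on log2(FPKM + 1), of each gene in 8 groups by role, with the median of each group as a bar and the median of the 443 genes, -0.52, as a line. The adhesion group spreads most widely, with an interquartile range of 0.77, and all genes of the RNA processing, mitochondrial, folding and cell cycle groups lie below 0.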

How the data were processed

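Gene expression was measured by poly(A) RNA-seq in 6 libraries, 3 per group, grouped by the hairpin their labels name. The values are FPKM, as the authors deposited them, 1 column per library. The build GRCh38 and the tools TopHat2 2.0.13 and DESeq are named, without their roles, per the submitters' processing notes. No source used here states the program, annotation, filter or strand setting behind the FPKM. Fragment totals are unknown, so no count test was run and no counting interval is given. The labels give repeats, so p-values measure the spread between these cultures.

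Ensembl identifiers linked 56807 of the 65198 gene rows to GENCODE 29 and left 8391 without a match. Types and positions came from GENCODE 29. All values were analysed as log2(FPKM + 1) with limma 3.58.1 (R 4.3.3, intensity trend, no replicate block) over the 15934 genes whose 6 libraries averaged 1 FPKM or more, with Benjamini-Hochberg adjustment at 0.05. Ratios are of mean FPKM. The second fit subtracted from each gene, per library, the median deviation from their own means of its 50 nearest tested protein-coding genes (15396 genes with at least 10 neighbours). Arms were split at 40 Mb, in the longest stretch without a gene. No table of cytogenetic bands was used, and windows of 10 Mb stand in for bands. Both fits were tested on simulated data. Promoters are from RefSeq (GRCh38.p14). Python 3.11.15 with pandas 2.3.3 and matplotlib 3.10.9 prepared tables and figures. The chromosome, lists and rules were chosen with earlier results of these data known.

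Genes were named by a rule: the 10 largest rises and 10 largest falls, and the 10 largest departures up and down from the neighbours, among genes past the threshold whose groups do not overlap, the 5 most abundant, the 3 most abundant of each list, the gene nearest each window median, and VIM, ZEB1, ACTA2, FAS, KLF6, GATA3, CDK1, PLAU, SRGN, ANKRD1 and ITGB1. Some genes that the rule takes are not reported here. TACC2, IFIT3, VCL, ARID5B, SCD, LARP4B, IDI1, STAM, COMMD3, EIF4EBP2 and C10orf55 were named after their values were seen. The alternatives were other pseudocounts (0.1, 0.01), filters, scalings, centrings, a replicate block and leaving out each library.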

Additional observations from a re-analysis of the deposited data

How the results depend on the processing

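With a pseudocount of 0.1 or 0.01, the median log2 difference of the 443 genes was -0.55 or -0.56, that of the p arm -0.71 or -0.72, that of the q arm -0.52 with either, and the interquartile range 0.45 or 0.46. With a minimum mean of 5 FPKM, these were -0.53 for the chromosome and -0.50 for the q arm, with an interquartile range of 0.37 and 7 genes that rose. Median-of-ratios scaling gave -0.50, -0.65 and -0.46 for the chromosome, p arm and q arm. Quantile normalisation gave -0.47 for the q arm and an interquartile range of 0.42. Leaving out 1 library in turn gave -0.53 to -0.51 for the chromosome, -0.68 to -0.65 for the p arm, -0.49 to -0.47 for the q arm, 0.17 to 0.20 for q minus p, 0.42 to 0.45 for the interquartile range, 235 to 273 genes that fell, 10 to 12 that rose, 31 to 50 higher and 26 to 41 lower than their neighbours. With no filter, 26 genes were higher and 128 lower than their neighbours, which are then other genes, and the difference of SRGN from them turned to -0.084 (adjusted p = 0.41). Centring on the 20 nearest genes gave 58 and 49, on the chromosome median 70 and 68. The replicate numbers were not used to pair the libraries. Deviations from the group mean correlated at -0.14, -0.07 and -0.05 between same-numbered libraries over 11587 protein-coding genes. Between libraries of different numbers the correlations ran from -0.155 to 0.187. With 3 libraries per group these deviations depend on each other, so a pairing is neither shown nor excluded. With the replicate block, 208 genes fell, 7 rose, 18 were higher and 15 lower than their neighbours. Of 944 alternatives for single genes other than leaving out a library and the block, 905 kept direction and call. The settings left out of that total were less stable. Of the 121 single-gene results followed, 24 lost their call without at least 1 library and 38 with the replicate block. The fragment depth is unknown and 3 libraries per group limit every call.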

Other observations

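In windows of 5 Mb, a width added after the data were seen, the lowest median ratio was 0.518, from 15 to 20 Mb (13 genes, 12 of which fell), and the highest was 0.866, from 0 to 5 Mb (10 genes, 3 of which fell). The step on the p arm lay between the window from 20 to 25 Mb, at 0.528 (12 genes), and that from 25 to 30 Mb, at 0.731 (16 genes). On the q arm the medians ran from 0.625, from 75 to 80 Mb (11 genes), to 0.771, from 65 to 70 Mb (18 genes), apart from the window from 105 to 110 Mb, whose 1 gene had a ratio of 0.840.

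Small nuclear RNA genes of the chromosome, 11 of which reached a mean of 1 FPKM, had a median ratio of 0.273. They are short and mostly not polyadenylated, and the median within-group standard deviation of their log2 values in shCtrl was 2.10.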
